A study of Mus musculus with 4 samples.

Results

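The Id genes encode helix-loop-helix proteins, and the E-protein genes *Tcf3*, *Tcf4* and *Tcf12* encode the basic helix-loop-helix factors that Id proteins bind. The 8 genes described here were taken by name from the 23906 gene symbols of each library. They are the 4 Id genes (*Id1*, *Id2*, *Id3* and *Id4*), the 3 E-protein genes and *Lyl1*, a haematopoietic basic helix-loop-helix gene whose product pairs with E proteins. RNA was sequenced from LSK-SLAM cells, a sorted fraction enriched for haematopoietic stem cells (HSCs) that is lineage-negative, positive for Sca1, cKit and CD150 and negative for CD48, of *BRE–GFP* transgenic mice on a C57BL/6 background. In all 4 groups the cells carried the transgene, in which GFP is driven by a BMP-responsive element. The groups were GFP+ and GFP- cells of the fetal liver (FL) at embryonic day 14, and GFP+ and GFP- cells of adult bone marrow (BM). There was 1 library per group, so no value below has a replicate error, and how many embryos or mice were pooled for a library is not given in the sources used here. GFP marks cells in which the pathway is active when they are sorted.

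Id proteins lack the basic region that contacts DNA. They pair with E proteins, and the pair cannot bind the E-box motif CANNTG, so that Id proteins hold E-protein activity down. E proteins drive early B- and T-cell genes, and *Tcf4* is also known for plasmacytoid dendritic cells (pDCs). LYL1 and its relative TAL1 bind E-boxes as partners of E proteins in a complex with LMO2, LDB1 and GATA factors, which acts in HSCs and in the red cell and megakaryocyte lineages. Id genes are direct targets of BMP signalling through Smad1/5, and the BMP-responsive element of such reporters was built from *Id1* regulatory sequence. The GFP gate is therefore not independent of *Id1* regulation.

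Promoter windows were taken from RefSeq (build GRCm38.p6) for 6 of the 8 genes. *Id1* and *Tcf4* had none here, and for *Tcf4* this is because entries on its chromosome, 18, were left out. The 250 bases before the start of *Id2*, *Id3* and *Id4* are shown because *Id2* and *Id3* were well detected and *Id4* was not. Capitals mark GGCGCC, a GC-rich element bound by Smad1/5, and CAGAC or its reverse complement GTCTG, the core of the Smad-binding element, searched on both strands. Each is written 5′ to 3′ on the strand of its gene.
Id2 (chr12:25096093-25096342, minus strand): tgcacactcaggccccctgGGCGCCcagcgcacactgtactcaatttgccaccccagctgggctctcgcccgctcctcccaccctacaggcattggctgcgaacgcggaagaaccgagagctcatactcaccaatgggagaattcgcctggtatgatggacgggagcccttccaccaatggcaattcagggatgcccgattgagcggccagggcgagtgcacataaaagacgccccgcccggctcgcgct
Id3 (chr4:136143572-136143821, plus strand): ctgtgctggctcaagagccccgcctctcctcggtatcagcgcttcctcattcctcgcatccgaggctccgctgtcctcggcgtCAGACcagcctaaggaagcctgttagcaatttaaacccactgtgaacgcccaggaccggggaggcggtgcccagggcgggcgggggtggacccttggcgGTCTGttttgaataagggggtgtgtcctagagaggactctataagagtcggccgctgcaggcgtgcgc
Id4 (chr13:48260866-48261115, plus strand): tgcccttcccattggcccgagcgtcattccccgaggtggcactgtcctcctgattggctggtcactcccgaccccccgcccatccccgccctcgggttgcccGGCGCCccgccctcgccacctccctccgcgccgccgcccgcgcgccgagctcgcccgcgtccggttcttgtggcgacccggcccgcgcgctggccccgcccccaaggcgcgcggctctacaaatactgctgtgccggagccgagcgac
*Id2* and *Id4* each held GGCGCC 1 time, and *Id3* held the CAGAC or GTCTG core 2 times. Of 32851 promoter windows of this length, 9.59% held GGCGCC and 42.2% held CAGAC or GTCTG. The E-box CANNTG was found 1 time before *Id2*, 0 times before *Id3* and *Id4*, and in 66.2% of all windows. Matches are letters only, and no binding was measured in these cells.

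The FL and BM labels were checked against genes known to be fetal. All 10 of the fetal markers with an FPKM (fragments per kilobase of transcript, scaled to mapped reads) of at least 1 in either GFP+ library were more than 2-fold higher in FL than in BM, as were all 12 in the GFP- libraries. *Igf2bp1*, for example, had an FPKM of 426 and 58.8 in FL GFP+ and GFP- cells and of 0 and 0.0184 in those of BM. The GFP+ and GFP- labels have no such independent check, and results stated by the study run both with and against them. The study states that GFP+ cells of both tissues express *Bmpr* genes and that GFP- cells do not. Under the labels *Bmpr2* had an FPKM of 0.120 (GFP+) and 2.02 (GFP-) in FL and 0.0381 (GFP+) and 0.251 (GFP-) in BM. Only the FL GFP- value reached 1. The study also states that *Tcf3* and *Flt3* were higher in GFP+ than in GFP- cells of BM. It calls its lymphoid genes comparable in FL. Under the labels *Tcf3* had 72.7 (GFP+) and 34.0 (GFP-) in BM, the stated direction, and 29.8 and 36.6 in FL. *Flt3* had 41.7 (GFP+) and 36.8 (GFP-) in BM, but 7.29 and 31.0 in FL. No symbol stands for GFP itself, and *Id1*, which was higher in the GFP+ library of each tissue, is not independent of the reporter. The bars drawn for single genes in the study's figures appear to follow the libraries in another order than the labels of the files, for tissue and for GFP. The labels of the files were kept, and GFP+ and GFP- below mean the libraries so labelled, so the direction of every difference between them rests on those labels. The sort markers were mixed in BM GFP+ cells. *Ly6a*, the gene of Sca1, had its highest FPKM there, 286 against 19.7 to 145.5 in the other libraries. The BM GFP+ FPKM for *Kit* was 22.2, against 76.6 to 150 in the other libraries, and *Procr*, an HSC surface marker, was listed at 0 there against 60.8 to 113. *Cd48*, whose protein the sort gates out, had an FPKM of 51.4 (GFP+) and 17.4 (GFP-) in FL and 267 (GFP+) and 126 (GFP-) in BM. *Ly6a*, *Kit*, *Procr*, *Cd48* and the other marker genes given below were picked for mention after their values were seen. FPKM summed to between 541453 and 1000848 over a library, highest in BM GFP+ cells. Read counts were not used here, so the depth behind a single FPKM is unknown.

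**Figure D1:**
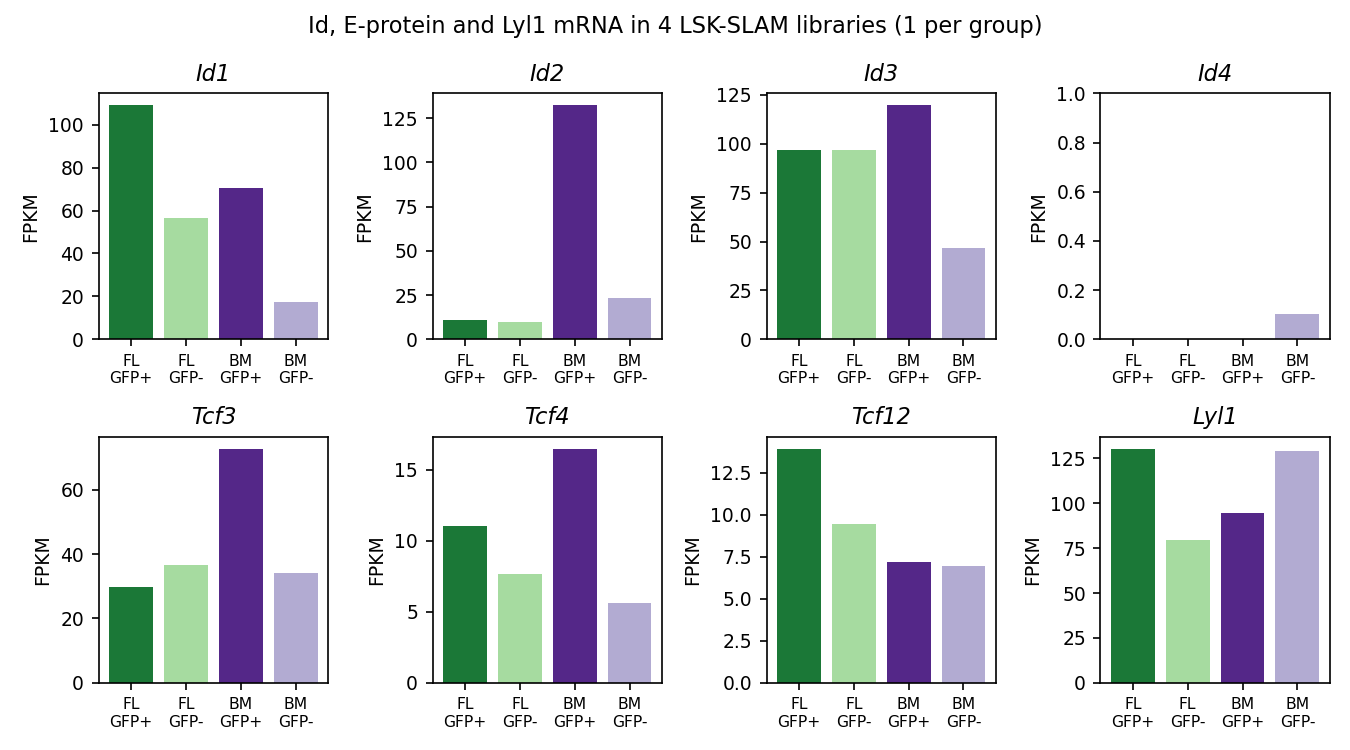
FPKM (vertical axis, linear from 0, its own range in each panel) of each of the 8 genes in the 4 libraries, 1 bar per library. *Id2*, *Id3*, *Tcf3* and *Tcf4* were highest in BM GFP+ cells, *Id1*, *Tcf12* and *Lyl1* in FL GFP+ cells, and *Id4* reached only 0.103.

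*Id1* was higher in GFP+ than in GFP- cells of both tissues and, within each fraction, higher in FL than in BM. Its FPKM was 109 (GFP+) and 56.5 (GFP-) in FL and 70.4 (GFP+) and 17.5 (GFP-) in BM. The GFP+ value was 1.93 times the GFP- value in FL and 4.03 times in BM. On the log2(FPKM + 1) scale, which understates the change of low genes, these ratios were 0.94 and 1.95. In FL the ratio was above that of 83.2% of the 12134 genes tested, those whose FPKM reached 1 in either library, and in BM above that of 96.0% of 12385. On NCBI37/mm9, *Id1* spans 152561987 to 152563146 of chromosome 2.

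*Id2*, which restrains E proteins in natural killer, innate lymphoid and dendritic cell development, followed another order. Its FPKM was 11.0 (GFP+) and 9.95 (GFP-) in FL and 132 (GFP+) and 23.5 (GFP-) in BM. Only the BM GFP+ library was high, at 5.64 times BM GFP- and 12.1 times FL GFP+ cells, whereas the FL fractions differed by 1.10-fold. *Id2* had the widest range of the 8 genes, 13.3-fold between its lowest and highest library. Its log2 ratio was 2.45 in BM, above that of 98.2% of genes, and 0.13 in FL, above that of 53.1%. On NCBI37/mm9 it spans 25778666 to 25780957 of chromosome 12.

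*Id3* was the most even of the detected Id genes. Its FPKM was 96.6 (GFP+) and 97.0 (GFP-) in FL and 120 (GFP+) and 46.6 (GFP-) in BM. The FL fractions were equal to within 1%, and BM GFP- cells stood lowest, 2.57-fold under BM GFP+ and 2.08-fold under FL GFP- cells. Its log2 ratio in BM was 1.34, above that of 89.5% of genes. *Id4* was listed at 0 in 3 libraries and at 0.103 in BM GFP- cells, too low for a ratio. *Id3* spans 135699412 to 135701670 on chromosome 4 and *Id4* 48356796 to 48359405 on chromosome 13 of NCBI37/mm9, where a non-coding gene on the other strand overlaps *Id4*.

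*Tcf3* encodes the E proteins E12 and E47 and was the most abundant E-protein gene in every library, FPKM being a level per length. Its FPKM was 29.8 (GFP+) and 36.6 (GFP-) in FL and 72.7 (GFP+) and 34.0 (GFP-) in BM. The BM GFP+ library stood apart, 2.14-fold over BM GFP- and 2.44-fold over FL GFP+ cells, while the other 3 libraries lay between 29.8 and 36.6. *Tcf4* had an FPKM of 11.0 (GFP+) and 7.64 (GFP-) in FL and 16.5 (GFP+) and 5.63 (GFP-) in BM. Its GFP+ value was the higher in both tissues, 1.44-fold in FL and 2.93-fold in BM. *Tcf12*, which encodes the E protein HEB, had an FPKM of 13.9 (GFP+) and 9.45 (GFP-) in FL and 7.19 (GFP+) and 6.92 (GFP-) in BM. It was highest in FL GFP+ cells, 1.47-fold over FL GFP-, and the BM fractions differed by 1.04-fold. *Tcf3* spans 79872259 to 79896392 on chromosome 10 and *Tcf12* 71692059 to 71959626 on chromosome 9 of NCBI37/mm9.

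*Lyl1* was the 1 detected gene with a lower FPKM in the GFP+ than in the GFP- cells of BM. Its FPKM was 130 (GFP+) and 79.4 (GFP-) in FL and 94.9 (GFP+) and 129 (GFP-) in BM. The GFP+ value was 1.64 times the GFP- value in FL, and in BM the GFP- value was 1.36 times the GFP+ value. With a range of 1.64-fold over the 4 libraries, *Lyl1* varied least of the 7 detected genes. On NCBI37/mm9 it spans 87225356 to 87228614 of chromosome 8, within the span of *Nfix* on the other strand, and whether counting used strand is not given in the sources used here. *Nfix* itself had an FPKM of 1.57 to 2.05 in the 4 libraries.

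GFP+ and GFP- cells were compared within each tissue to ask which genes go with BMP activation. A gene was called past 2-fold when its FPKM in either library exceeded that in the other more than 2-fold. In FL 0 of the 7 detected genes were past 2-fold, against 17.9% of all genes tested that were higher in GFP+ and 26.8% that were higher in GFP- cells. *Id1*, at 1.93-fold, and *Lyl1*, at 1.64-fold, came nearest. The study's own rule asks for more than 2-fold in both tissues, which 0 of the 7 met. In BM 5 of 7 were past 2-fold higher in GFP+ cells (*Id1*, *Id2*, *Id3*, *Tcf3* and *Tcf4*) and 0 higher in GFP- cells, against 21.1% and 19.6% of all genes tested. Without the minimum FPKM of 1, *Id4*, at 0 against 0.103, would also count, as higher in GFP- cells, which makes 6 of 8 past 2-fold in either direction. The median log2 ratio of the 7 genes was 0.47 in FL and 1.34 in BM, beside 0.053 and 0.12 over all genes tested.

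The BM result depended in part on scale. With every library brought to the same FPKM total, 3 of 7 genes were past 2-fold higher in GFP+ cells. These were *Id1* at 2.94-fold, *Id2* at 4.11-fold and *Tcf4* at 2.13-fold, while *Id3* at 1.87-fold and *Tcf3* at 1.56-fold no longer passed. With libraries brought to the same upper quartile 4 of 7 passed, without *Tcf3*. Under equal totals the log2 ratio of *Tcf12* turned from 0.049 to -0.34. That scaling moved the median over all genes from 0.12 to -0.30 in BM and from 0.053 to -0.19 in FL. The shares of all genes past 2-fold given above are for FPKM as deposited. In FL it turned the ratio of *Id2* from 0.13 to -0.11. The log2 ratio of *Id1* stayed above 0 in both tissues under the 2 rescalings tried, at 0.68 and 0.71 in FL and 1.502 and 1.85 in BM.

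**Figure D2:**
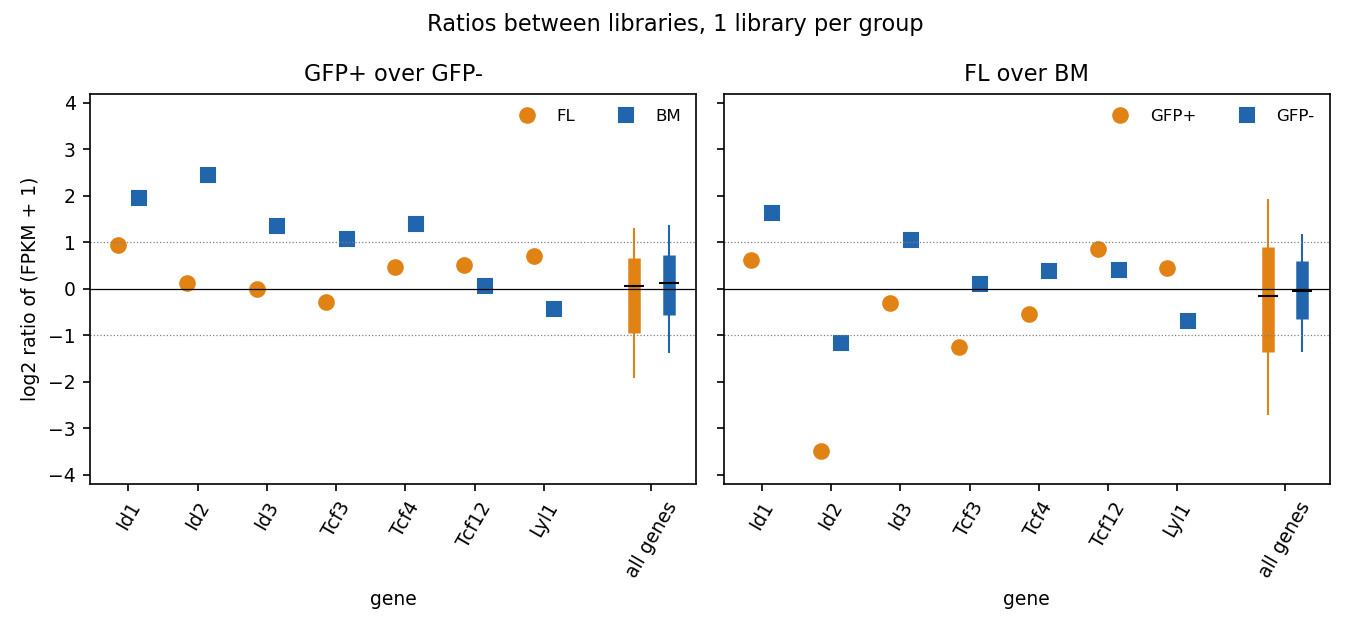
Log2 ratio of (FPKM + 1) on the vertical axis for each of the 7 detected genes, GFP+ over GFP- in FL and BM (left) and FL over BM in GFP+ and GFP- cells (right), from 1 library per group. At the right of each panel a thick bar spans the middle 50% of all genes tested, a thin line the 10th to 90th percentile and a tick the median, and dotted lines mark 2-fold. In BM, *Id1*, *Id2* and *Tcf4* lie above the 90th percentile of all genes, at 1.95, 2.45 and 1.40 against 1.37.

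Between tissues, which gene was past 2-fold the same way in both fractions depended on scale. As deposited it was *Id2*, higher in BM, and no other of the 8 genes. With libraries brought to the same upper quartile it was again *Id2*, higher in BM by 11.7-fold in GFP+ and 2.10-fold in GFP- cells. With libraries brought to the same FPKM total it was *Id1*, higher in FL by 2.40-fold in GFP+ and 4.36-fold in GFP- cells, and *Id2* in GFP- cells no longer passed, at 1.75-fold higher in BM. In GFP+ cells *Id2* and *Tcf3* were past 2-fold higher in BM (2 of 7, against 33.6% of all genes tested), and 0 of 7 were higher in FL (25.1%). In GFP- cells *Id1* and *Id3* were past 2-fold higher in FL (2 of 7, against 19.3%) and *Id2* higher in BM (1 of 7, against 18.6%). *Id1* was thus 1.55-fold higher in FL among GFP+ and 3.24-fold higher in FL among GFP- cells. These ratios share libraries with the GFP ratios above and are not separate evidence. Under rescaling to equal FPKM totals 4 genes were past 2-fold in GFP+ cells, namely *Id2*, higher in BM, and *Id1*, *Tcf12* and *Lyl1*, higher in FL. *Id3* then turned from -0.31 to 0.32 and *Tcf4* from -0.54 to 0.043 (log2, FL over BM). That rescaling shifts all genes alike, and the median over all genes tested moved from -0.15 to 0.42 in GFP+ and from -0.038 to 0.36 in GFP- cells. The shares of all genes given here are for FPKM as deposited.

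Levels were also set against each other within a library, where scaling between libraries has no part. This summary was chosen after the values were seen. Summed Id FPKM was 217 (GFP+) and 163 (GFP-) in FL and 323 (GFP+) and 87.7 (GFP-) in BM. Summed E-protein FPKM was 54.7, 53.7, 96.4 and 46.6 in the same order. The Id sum was 3.96 times the E-protein sum in GFP+ and 3.04 times in GFP- cells of FL, and 3.35 and 1.88 times in those of BM. The ratio was higher in GFP+ than in GFP- cells of both tissues, 1.30-fold in FL and 1.78-fold in BM, and lowest in BM GFP- cells. With *Lyl1* added to the E proteins the ratios were 1.17, 1.23, 1.69 and 0.498, so the order of the FL fractions changed and BM GFP- cells were still lowest.

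The make-up of the Id sum differed by tissue. *Id1* made up 50.4% of it in the GFP+ and 34.6% in the GFP- cells of FL, but 21.8% and 19.9% in those of BM. *Id2* made up 5.06% and 6.08% in FL against 41.0% and 26.8% in BM. *Id3* held between 37.1% and 59.3% in all 4 libraries and was the larger share in both GFP- libraries. Of the E-protein sum, *Tcf3* made up 54.4% in GFP+ and 68.2% in GFP- cells of FL, and 75.4% and 73.1% in those of BM. *Tcf12* made up 25.5% in FL GFP+ but 7.46% in BM GFP+ cells. *Tcf4* stayed between 12.1% and 20.1%, with the higher share in the GFP+ library of each tissue.

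**Figure D3:**
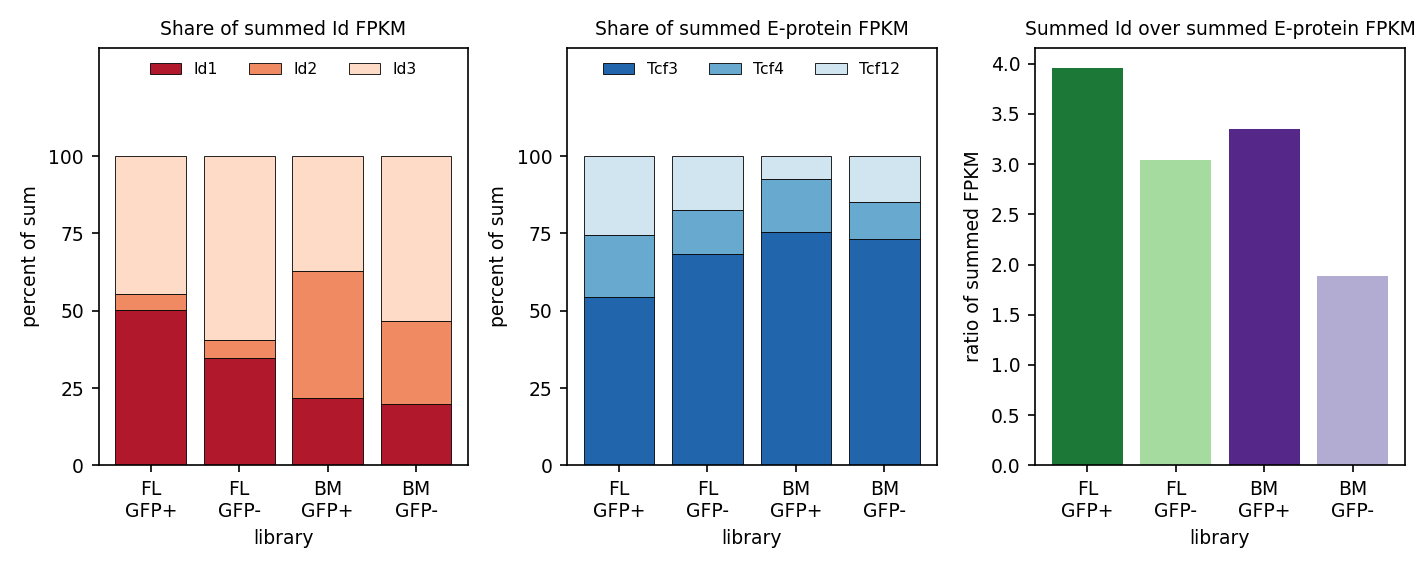
Left and middle, percent of the summed FPKM of *Id1* to *Id3* (with *Id4* at most 0.118%) and of the 3 E-protein genes that each gene makes up in each library; right, summed Id FPKM divided by summed E-protein FPKM. *Id2* takes 5.06% to 6.08% of the Id sum in FL and 26.8% to 41.0% in BM, and the ratio is lowest, at 1.88, in BM GFP- cells.

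Most lists of mature-cell markers moved with *Id2*, *Tcf3* and *Tcf4* in BM, though not every gene on them did. The 7 B-cell markers in the files summed to an FPKM of 96.6 (GFP+) and 42.6 (GFP-) in FL and 3566 (GFP+) and 948 (GFP-) in BM. Of these 7 of 7 were past 2-fold higher in BM GFP+ than in BM GFP- cells, against 21.1% of all genes tested. For the 10 pDC markers the sums were 80.0, 90.1, 1794 and 496 in the same order, with 7 of 10 past 2-fold. *Siglech*, a defining pDC marker, had an FPKM of 98.0 in the GFP+ and 21.6 in the GFP- cells of BM, a 4.54-fold difference, and was at 0 and 0.0424 in FL GFP+ and GFP- cells. The 8 T-cell markers summed to 14.6, 16.0, 174 and 57.2, with *Cd3e* and *Cd3g* at 0 in both FL libraries. The sums of 10 granulocyte markers were 588, 310, 64056 and 17786, those of 8 erythroid markers 1010, 918, 20443 and 2860, and those of 9 macrophage markers 59.0, 45.4, 291 and 106. Of the granulocyte markers 6 of 10 were past 2-fold higher in BM GFP+ than in BM GFP- cells. *S100a8* and *S100a9* made up much of the BM GFP+ sum, at 25286 and 14307. The primary granule genes *Elane*, *Mpo*, *Ctsg* and *Prtn3* had GFP+ over GFP- ratios of 1.31, 1.22, 0.943 and 1.29 in BM. Megakaryocyte markers, with sums of 61.9, 77.9, 395 and 469, were the exception in BM, and stromal markers were low, with sums of 0.527, 5.94, 77.6 and 13.3.

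The B-cell, pDC, T-cell, granulocyte, erythroid and macrophage sums were thus higher in BM than in FL and higher in GFP+ than in GFP- cells of BM, which is also the order of *Id2*. In bulk RNA a larger number of such cells and more RNA per cell cannot be told apart. The 7 sort markers went the other way, 6 of 7 being past 2-fold higher in the GFP- fraction of BM and 0 in the GFP+ fraction. The 7 endothelial genes were split, 3 higher and 3 lower past 2-fold in BM GFP+ cells. Of these, *Tie1* had an FPKM of 85.7, 81.3, 0.0370 and 29.2 in FL GFP+, FL GFP-, BM GFP+ and BM GFP- cells, and *Tek* had 41.5, 43.0, 0 and 5.54. The part of these cells in the BM values of the Id and E-protein genes was not tested. The FL comparison does not use the BM libraries, but markers of mature cells were also found in FL. An FPKM of 1 was reached in FL GFP+ and GFP- cells by 3 and 1 of the 7 B-cell, 3 and 2 of the 8 T-cell, 2 and 3 of the 10 pDC and 4 and 6 of the 9 macrophage markers. The defining markers *Siglech*, *Ms4a1* and *Cd3e* were at or below 0.0424, whereas *Bst2*, on the pDC list, had 59.9 and 70.3. Some markers differed between the FL fractions. Of 8 macrophage markers tested, 4 were past 2-fold higher in FL GFP+ cells, among them *Csf1r* at 9.56 against 0.0177, and 4 were lower, among them *Cd68* at 0.157 against 17.8. All 3 B-cell markers tested were past 2-fold higher in FL GFP+ cells, among them *Cd79b* at 87.6 against 41.1. Hepatocyte markers summed to 452 in the GFP+ and 69.7 in the GFP- cells of FL, with 6 of 8 past 2-fold higher in GFP+ and *Alb* at 140 against 9.49. Granulocyte markers, with sums of 588 and 310, had 3 of 6 past 2-fold higher and 2 lower. The primary granule genes *Mpo* and *Prtn3* made up most of these sums, at 247 and 222 in GFP+ and 117 and 130 in GFP- cells. The part of the cells that these lists mark in the FL ratios of *Id1* and *Lyl1* was not tested.

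**Figure D4:**
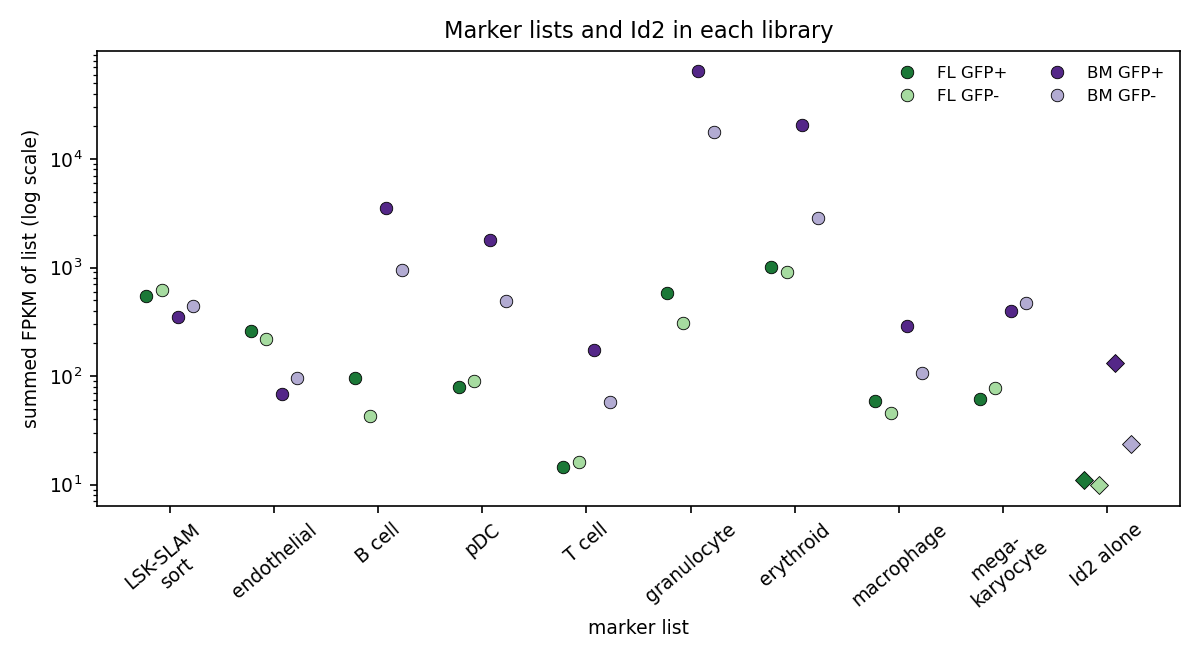
Summed FPKM of each marker list (log axis) in the 4 libraries, with the FPKM of *Id2* alone at the right (diamonds). Granulocyte, erythroid, B-cell, pDC, T-cell and macrophage sums are highest in BM GFP+ cells, as is *Id2* at 132, whereas the sort and endothelial lists are lowest there.

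The only test that 4 such libraries allow takes the tissues as replicates of the GFP contrast, and the fractions as replicates of the tissue contrast. Limma was fitted on log2(FPKM + 1) over 11707 genes, with 1 residual degree of freedom. For GFP it called 0 of the 7 genes at a Benjamini-Hochberg adjusted p under 0.05, where 0.0427% of all genes were called higher and 0.0683% lower in GFP+ cells. *Id1* had the smallest p of the 7, with a log2 difference of 1.44 (standard error 0.44), a limma p of 0.0097 and an adjusted p of 0.73, and it was higher in GFP+ cells in 2 of 2 tissues. It was the 1 member under an unadjusted p of 0.05. For tissue, limma called 0 of 7, where 0.29% of all genes were called higher in FL and 2.17% higher in BM. *Id2* (log2 difference, FL minus BM, of -2.32, standard error 0.66, limma adjusted p = 0.13) and *Id1* (1.13, standard error 0.44, limma adjusted p = 0.23) were the 2 members under an unadjusted p of 0.05.

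BMP receptors and Smads pass the signal to the Id genes. Of 12 BMP receptor and Smad genes, 8 reached an FPKM of 1 in any library. *Bmpr2*, a type 2 receptor named after its values were seen, had an FPKM of 0.120 (GFP+) and 2.02 (GFP-) in FL and 0.0381 (GFP+) and 0.251 (GFP-) in BM, lower in the library labelled GFP+ of each tissue. The study states the opposite, that GFP+ cells express *Bmpr* genes and GFP- cells do not. *Bmpr1a* was at 0 in both GFP+ libraries and at 0.00797 and 0.347 in FL GFP- and BM GFP- cells. *Bmpr1b* was at 0 in every library, and both were also named after their values were seen. Apart from *Bmpr2* in FL GFP- cells, every *Bmpr* value was under an FPKM of 1, too low for a firm ratio. Of the activin receptors, *Acvr2b* had 2.74 (GFP+) and 2.04 (GFP-) in FL, and *Acvr2a* had 0 and 2.09. In FL 0 of the 6 receptor and Smad genes tested were past 2-fold higher in GFP+ and 3 higher in GFP- cells, and in BM 2 and 3 of 5. Over all genes tested the shares were 17.9% and 26.8% in FL and 21.1% and 19.6% in BM. *Eng*, a co-receptor for BMP ligands, was the most abundant, with an FPKM of 178 (GFP+) and 145 (GFP-) in FL and 25.7 (GFP+) and 57.8 (GFP-) in BM. *Acvrl1*, a type 1 receptor, had 0, 0.0954, 10.9 and 1.98, and *Smad5*, a signal transducer, had 11.8, 9.88, 0.130 and 4.28. *Eng* and *Smad5* were thus past 2-fold higher in FL in both fractions, and *Acvrl1* was higher in BM.

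Other genes known as BMP-Smad targets were set beside *Id1*. Of 18 listed, 10 reached an FPKM of 1. In FL 1 of 8 was past 2-fold higher in GFP+ and 3 in GFP- cells, and in BM 4 and 2 of 9, with median log2 ratios of 0.29 and 0.97, beside 0.053 and 0.12 over all genes tested. The shares of all genes tested past 2-fold were 17.9% and 26.8% in FL and 21.1% and 19.6% in BM. *Junb*, an AP-1 subunit, was the 1 past 2-fold in FL, with an FPKM of 30.8 and 12.5 in FL GFP+ and GFP- and of 744 and 379 in BM GFP+ and GFP- cells, where it missed the threshold at 1.96-fold. *Smad6* and *Smad7*, the inhibitory Smads that feed back on the pathway, reached at most 3.86 and 3.83. *Msx1*, *Hey1* and *Nog* were listed at 0 in all 4 libraries. *Bambi* was past 2-fold lower in the GFP+ library of each tissue, with an FPKM of 0.0145 (GFP+) and 1.20 (GFP-) in FL and 1.31 (GFP+) and 4.49 (GFP-) in BM. *Smad6*, *Smad7*, *Msx1*, *Hey1*, *Nog* and *Bambi* were named after their values were seen.

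The partners of E proteins in the TAL1 and LYL1 complex were mostly present. Of 14 listed genes, 13 reached an FPKM of 1, and in FL 2 of 13 were past 2-fold higher in GFP+ and 1 in GFP- cells, in BM 1 and 3 of 12. Over all genes tested the shares were 17.9% and 26.8% in FL and 21.1% and 19.6% in BM. *Ssbp2*, which encodes a partner of LDB1, was the 1 gene past 2-fold the same way in both tissues, with an FPKM of 10.4 (GFP+) and 23.2 (GFP-) in FL and 6.42 (GFP+) and 14.3 (GFP-) in BM. *Lmo4* was past 2-fold higher in BM in both fractions, at 34.1 and 24.2 in BM GFP+ and GFP- cells against 13.6 and 9.79 in FL. *Lmo2*, the bridging subunit, had an FPKM of 263, 238, 123 and 412 in FL GFP+, FL GFP-, BM GFP+ and BM GFP- cells, and *Gata2* had 138, 87.6, 25.04 and 86.4, so that both were lowest in BM GFP+ cells. *Tal1* had 35.4, 19.6, 8.51 and 14.2, under *Lyl1* in every library. *Lmo2*, *Gata2* and *Tal1* were named after their values were seen. Of 27 other basic helix-loop-helix genes only 6 reached an FPKM of 1, and *Bhlhe40* was the 1 past 2-fold higher in BM in both fractions with an FPKM over 10, at 23.1 in the GFP+ and 3.63 in the GFP- cells of BM.

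Known E-protein target genes were set beside the E-protein genes. Of 24 listed, 22 reached an FPKM of 1. In FL 4 of 14 were past 2-fold higher in GFP+ and 7 in GFP- cells, with a median log2 ratio of -0.72, and in BM 9 and 1 of 21, with a median of 0.80. Over all genes tested these medians were 0.053 and 0.12, and the shares past 2-fold were 17.9% and 26.8% in FL and 21.1% and 19.6% in BM. Between tissues, 18 of 22 were past 2-fold higher in BM among GFP+ cells, and 13 of 21 among GFP- cells, against 33.6% and 18.6% of all genes tested. *Cd79a*, a B-cell receptor subunit, had an FPKM of 7.16 (GFP+) and 0.766 (GFP-) in FL and 1063 (GFP+) and 265 (GFP-) in BM. *Irf8*, a myeloid and dendritic cell regulator, had 15.1, 4.79, 320 and 132 in that order. *Igll1*, the surrogate light chain gene, and *Dntt*, which adds bases at immunoglobulin joints, were at 0 in both FL libraries and reached 106 and 33.3 in the GFP+ and 59.3 and 52.5 in the GFP- cells of BM. *Cd79a*, *Cd79b* and *Pax5* are also on the B-cell marker list and *Ccr9* on the pDC list, and the part of mature cells in these values was not tested.

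The genes whose levels followed each member most closely over the 4 libraries were found by the root mean square difference of centred log2(FPKM + 1) values, among 8190 genes whose mean FPKM was 5 or more. For *Id2* they were *Bank1*, a B-cell scaffold gene, at 0.11, and *Zfp36l1*, which encodes an mRNA decay factor, at 0.12. *Bank1* had an FPKM of 13.1, 10.5, 128 and 23.7 in FL GFP+, FL GFP-, BM GFP+ and BM GFP- cells. For *Id1* they were *Bricd5* at 0.081 and *Tspan8*, a tetraspanin gene, at 0.14. For *Id3* they were *Elmsan1* at 0.0082 and *Hgf*, a growth factor gene, at 0.032. For *Tcf3* they were *Gstm4*, a glutathione transferase gene, at 0.040 and *Ctcf*, a chromatin insulator gene, at 0.041. For *Tcf4* they were *Gata3*, a T-lineage factor gene, at 0.029 and *Calcoco1* at 0.043. With 4 points many genes come close, since 283 lay within 0.25 of *Tcf3*, 183 of *Tcf4*, 149 of *Id3*, 16 of *Id1* and 4 of *Id2*. *Tcf12* and *Lyl1* varied by less than 1 on the log2 scale and were not matched.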

How the data were processed

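RNA of LSK-SLAM cells was measured in 4 libraries, 1 per group, grouped by the sample titles. The authors deposited FPKM. They had sequenced SMARTer libraries on a HiSeq2000 and processed the reads with TopHat and Cufflinks (2.2.1, per the submitters' processing notes), corrected for fragment bias and multiple mapping and normalized across samples with Cuffnorm. The methods name the NCBI37/mm9 genome and the notes name mm10. The files give no coordinates, so gene positions are from GENCODE vM1 (NCBI37/mm9) and promoters from RefSeq (GRCm38.p6). SMARTer amplification and the Cuffnorm scaling both affect levels, and FPKM carry no depth.

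Ratios used log2(FPKM + 1), and a gene was tested in a contrast where its FPKM was at least 1 in either library. The 2-fold rule is that of the study's methods, applied to single contrasts. Limma 3.58.1 (R 4.3.3, eBayes with trend, the other factor as a block, Benjamini-Hochberg adjustment) used genes whose FPKM reached 1 in 2 or more libraries and was tested on simulated data. Other steps used Python 3.11.15 with pandas 2.3.3, numpy 2.4.6 and matplotlib 3.10.9. Members and lists were chosen with earlier results of these data known. From each list, genes were named that were past 2-fold the same way in both tissues or both fractions with an FPKM of at least 10, at most 4 a list, and others where stated. The 2 closest genes were named per member. Alternatives were other thresholds, pseudocounts, filters, limma settings and rescaling to equal FPKM totals or upper quartiles.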

Additional observations from a re-analysis of the deposited data

Results flagged for a closer look

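For 4 of the genes a ratio had opposite signs in the groups compared. With 1 library per group the difference was not tested. *Tcf3* was lower in GFP+ than in GFP- cells of FL (log2 ratio -0.29) and higher in those of BM (1.07), a difference of 1.36. *Id3* had -0.0065 in FL and 1.34 in BM, a difference of 1.35, where the FL value is close to 0. *Lyl1* had 0.71 in FL and -0.44 in BM, a difference of -1.15. *Tcf4* was higher in GFP+ cells of both tissues, but its FL over BM ratio was -0.54 in GFP+ and 0.38 in GFP- cells, which is the same difference of 0.93 between the GFP ratios of BM and FL.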

How the results depend on the processing

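The count of genes past 2-fold moved by more than 1.5 times under 6 alternatives and stayed within that under the other 18. At a threshold of 1.5-fold it was 2 in FL (from 0) and 4 between the GFP+ libraries (from 2). At 4-fold it was 3 in BM (from 6), 1 between the GFP+ libraries (from 2) and 1 between the GFP- libraries (from 4). The shares of all genes past 1.5-fold and 4-fold were not computed, so these counts have no background to be read against. *Id4* is included in the BM and GFP- counts. Those left at 4-fold were *Id1*, *Id2* and *Id4* in BM, *Id2* between the GFP+ libraries and *Id4* alone between the GFP- libraries. There *Id4* was at 0 in FL and 0.103 in BM, so no detected gene passed. Rescaling to equal FPKM totals gave 4 between the GFP+ libraries. Of the ratios recomputed for single genes, 8 moved by more than 1.5-fold and 88 did not, and no ratio past 2-fold changed sign. Limma called 0 members for GFP and for tissue under all 7 alternatives to each, while its calls over all genes ran from 0 to 15 for GFP (13 as reported) and from 0 to 485 for tissue (288 as reported). The smallest adjusted p of a member ranged from 0.65 to 0.9998 for GFP and from 0.063 to 0.33 for tissue. The limma fit pairs the GFP fractions within a tissue by its block, and the labels give no replicate numbers to pair by. Without the block it called 0 members, 4 genes for GFP and 176 for tissue. No library could be left out of a contrast of 1 against 1. Without read counts, the counting error of a low FPKM such as that of *Id4* is unknown.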

Other observations

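Genes other than BMP components that are known to act on Id genes were listed as well (11 genes, all reaching an FPKM of 1). In FL 0 of 11 were past 2-fold higher in GFP+ and 4 in GFP- cells, and in BM 4 and 2 of 11. Over all genes tested the shares were 17.9% and 26.8% in FL and 21.1% and 19.6% in BM. *Egr1*, an immediate early factor, had an FPKM of 0.110 (GFP+) and 1.16 (GFP-) in FL and 37.4 (GFP+) and 80.9 (GFP-) in BM, lower in GFP+ cells of both tissues. *Zfp36*, an mRNA decay factor gene, had 16.3, 12.6, 220 and 134.6 in the same order. *Tgfbr1*, the type 1 TGF-beta receptor gene, had 17.4, 14.2, 4.81 and 3.18, higher in FL in both fractions. *Stat5b* had 37.7, 35.3, 15.9 and 15.8, with the fractions of each tissue close to each other.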
